A study of Mus musculus with 8 samples.

Results

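Chemokines are small secreted proteins that guide the movement of white blood cells. Their genes were taken by symbol, as every row of the deposited table named Ccl, Cxcl, Cx3cl or Xcl followed by a number and at most 1 letter. This gave 39 chemokine ligand genes of 23284 genes in the table. Polyadenylated RNA was sequenced in 8 libraries, made from induced pluripotent stem cells (iPSCs) of the mouse, which had been reprogrammed from embryonic fibroblasts and were grown over feeder cells. In 4 libraries the cells were wild type (ColA1_miR203 (+/+); Rosa26rtTA (+/+)) and were collected 1 week after transfection with siControl, siDnmt3a, siDnmt3b, or siDnmt3a and siDnmt3b together (the double siRNA), with 1 library per group. Dnmt3a and Dnmt3b, the siRNA targets, encode DNA methyltransferases. The other 4 libraries came from iPSCs with ColA1_miR203 (KI/KI) and Rosa26rtTA (KI/KI), a knock-in in which doxycycline (dox), through the transactivator rtTA, switches on the microRNA miR-203. Clones 1 and 2 had 1 library each without induction (vehicle), and clones 1 and 2 had 1 library each after 5 days of dox and 2 weeks of withdrawal (dox), so n = 2 per group. The knock-in is thus seen in 2 clones per group, and the libraries hold RNA of the iPSCs and of any feeder cells collected with them.

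Chemokines act through G protein-coupled receptors on the cells they attract. CXC chemokines with a Glu-Leu-Arg motif before the first cysteines, such as Cxcl1, Cxcl2 and Cxcl5, attract neutrophils through the receptor Cxcr2, whereas Cxcl9, Cxcl10 and Cxcl11 attract T cells through Cxcr3. The inflammatory CC chemokines attract monocytes, T cells or dendritic cells, and homeostatic chemokines such as Cxcl12 are made without an inflammatory stimulus. Many inflammatory chemokine genes are switched on by NF-kB, a factor released from its inhibitors by signals such as TNF or IL-1, and others by the STAT and IRF factors that act downstream of interferons. Fibroblasts and macrophages are well-known sources of both kinds. Of the 39 genes, 6 were listed from textbook knowledge as interferon-dependent (Cxcl9, Cxcl10, Cxcl11, Ccl5, Ccl8 and Ccl12) and 11 as NF-kB-dependent (Cxcl1, Cxcl2, Cxcl3, Cxcl5, Ccl2, Ccl3, Ccl4, Ccl7, Ccl20, Ccl22 and Cx3cl1). The division is not strict, since several members, Ccl5 and Cxcl10 among them, are known to answer to both pathways.

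Sequence elements of both pathways were looked for in the members' promoters. Windows from 250 bases before to 50 bases after the transcription start were taken from RefSeq (GRCm38.p6), which held 27 of the 39 members in 33 windows. No window was found for Ccl2, Ccl4, Ccl5, Ccl7, Ccl11, Ccl21c, Ccl24, Ccl26, Cxcl5, Cxcl11, Cxcl16 and Cxcl17. These members were not searched, so nothing is said about elements in their promoters. The interferon-stimulated response element (ISRE), searched as GAAANNGAAA on both strands, was present in 3.44% of all 32851 windows and in those of 3 members, Cxcl10, Ccl19 and Cxcl14. The NF-kB consensus, searched on both strands, was present in 8.46% of all windows and in those of 8 members, Cxcl1, Cxcl2, Cxcl3, Cxcl10, Ccl20, Ccl1, Ccl9 and Ccl27a. Cxcl10 held both elements, and they did not overlap there. Its 250 bases before the start, on the minus strand at chr5:92348890-92349139, are shown because Cxcl10 had the highest level of the members that fell, with the ISRE (from base -213) and 2 NF-kB matches (from bases -159 and -104) in capitals. The neutrophil chemokines Cxcl1, Cxcl2 and Cxcl3 carried the same 11-base NF-kB match, shown in capitals with 25 bases on either side on the plus strand at chr5:90891149-90891209, chr5:90903777-90903837 and chr5:90786003-90786063. Aligned on that match, the 61 bases of Cxcl1 and Cxcl2 were identical at 30 positions. Ccl20, on the plus strand at chr1:83116661-83116720, held its match on the opposite strand.
Cxcl10: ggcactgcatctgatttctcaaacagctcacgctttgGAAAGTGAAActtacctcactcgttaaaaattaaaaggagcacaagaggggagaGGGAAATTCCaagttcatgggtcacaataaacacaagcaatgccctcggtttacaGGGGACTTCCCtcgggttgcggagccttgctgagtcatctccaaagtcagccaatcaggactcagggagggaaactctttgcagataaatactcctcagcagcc
Cxcl1: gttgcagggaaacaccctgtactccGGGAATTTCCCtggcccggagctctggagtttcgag
Cxcl2: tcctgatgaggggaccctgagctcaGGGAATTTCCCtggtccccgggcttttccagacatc
Cxcl3: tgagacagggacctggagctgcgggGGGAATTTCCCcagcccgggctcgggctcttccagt
Ccl20: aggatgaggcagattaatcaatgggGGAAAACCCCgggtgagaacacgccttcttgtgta
A match describes letters in the window and does not show that a factor was bound. Of the 3 members that share these 11 bases, Cxcl1 rose after dox, Cxcl2 did not pass the test and Cxcl3 was too low to be tested.

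The values are FPKM, fragments scaled to transcript length and to library size, by a scaling option that is not known here. How many fragments were sequenced was not given in the sources used here, and 11620 to 12076 genes reached 1 FPKM in each library. The siRNA targets were near their siControl levels at collection. Dnmt3a in the siDnmt3a library was at 79.7% of siControl, Dnmt3b in the siDnmt3b library was at 87.7%, and in the double siRNA library they were at 92.6% and 92.3%. The row of the microRNA gene Mir203, which polyadenylated RNA does not measure as a mature microRNA, was at 17.7 FPKM in vehicle clone 2 and 15.3 in dox clone 2 and listed at 0 in the other 6 libraries, so it followed the clone number and not the dox label. The pluripotency markers were present in every library, with a summed level of 3031 to 3829 FPKM in wild-type libraries and 3456 to 4457 in knock-in libraries. Between dox and vehicle 3 of these 10 markers rose and 1 fell, beside 17.1% and 14.8% of all genes tested. With the clone number as a block in the limma fit 5 rose and 4 fell, beside 3052 and 3190 of all 11927 genes.

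Chemokine RNA was far more abundant in the knock-in libraries than in the wild-type libraries. The FPKM of all 39 genes summed to 116 in siControl, 79.6 in siDnmt3a, 86.5 in siDnmt3b and 87.6 in the double siRNA. It summed to 1071 and 1080 in the vehicle libraries and to 1344 and 1302 in the dox libraries. Members at 1 FPKM or more numbered 15 to 17 in the wild-type libraries, 22 in each vehicle library, and 22 and 21 in the dox libraries. In wild-type cells the most abundant member was Ccl2, which draws in monocytes, with 15.1 to 29.7 FPKM, beside Ccl5 at 14.7 to 16.7 and Ccl7 at 11.4 to 18.2. In vehicle libraries Ccl5 (307.6 and 269.7 FPKM), Cxcl10 (251.4 and 288.2) and Ccl2 (195 and 207) led, with Ccl5 first in clone 1 and Cxcl10 first in clone 2. In dox libraries Ccl5 led at 490.3 and 486.5 FPKM, above Ccl2 (248 and 233) and Ccl7 (138 in each). Cxcl10 made up 23.5% and 26.7% of the chemokine sum in vehicle libraries and 4.33% and 3.36% in dox libraries.

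**Figure D1:**
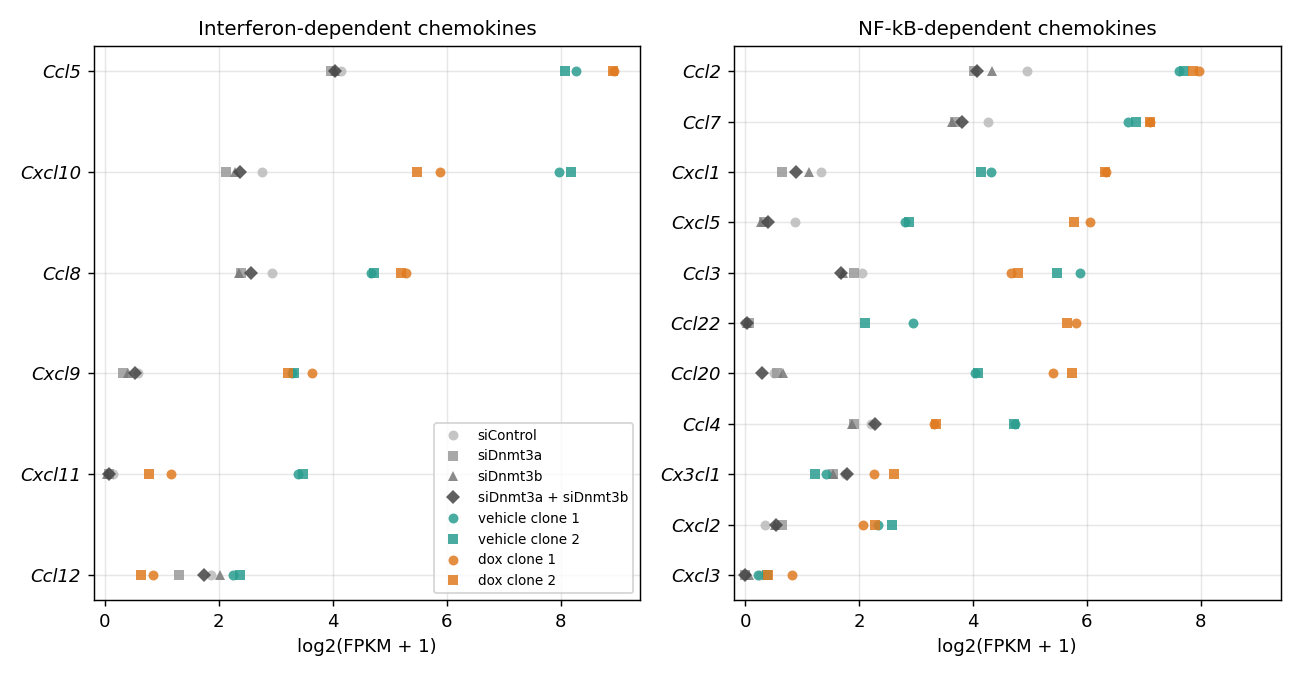
Level as log2(FPKM + 1) (horizontal axis) of the 6 interferon-dependent (left) and 11 NF-kB-dependent members (right) in each of the 8 libraries, with wild-type libraries in grey, vehicle in green and dox in orange. Cxcl10, Cxcl11, Ccl12, Ccl3 and Ccl4 have both dox points left of both vehicle points, while Cxcl1, Cxcl5, Ccl20 and Ccl22 have them to the right.

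Most of the measured chemokines differed between dox and vehicle, some higher and some lower. The 23 members with a mean of 1 FPKM or more over the 4 knock-in libraries were tested within a fit over 11927 such genes (limma on log2(FPKM + 1), Benjamini-Hochberg adjustment, threshold 0.05). Of these, 13 rose and 5 fell, and 5 did not pass. Among all genes tested, 17.1% rose and 14.8% fell. Of the members that rose, 7 were NF-kB-dependent, 2 interferon-dependent and 4 of neither list. Of those that fell, 3 were interferon-dependent (Cxcl10, Cxcl11 and Ccl12) and 2 NF-kB-dependent (Ccl3 and Ccl4). The differences ran from -2.47 for Cxcl11 to 3.20 for Ccl22 on the log2(FPKM + 1) scale, where the pseudocount of 1 shrinks the differences of low genes. The median was 0.37 over the 23 members, -0.72 over the 6 interferon-dependent, 0.72 over the 10 NF-kB-dependent and -0.01 over all genes. A member that is low in 1 group passed the filter through its level in the other. Ccl11 did so through its dox level. Cxcl11 and Ccl12, with dox means of 0.961 and 0.673 FPKM, did so through their vehicle levels. These counts therefore describe measured members only. The p-values set each difference against the spread between the 2 libraries of a group, drawn towards a trend over all genes tested. The clone number was left out of this fit, and the p-values cover these 4 libraries only.

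**Figure D2:**
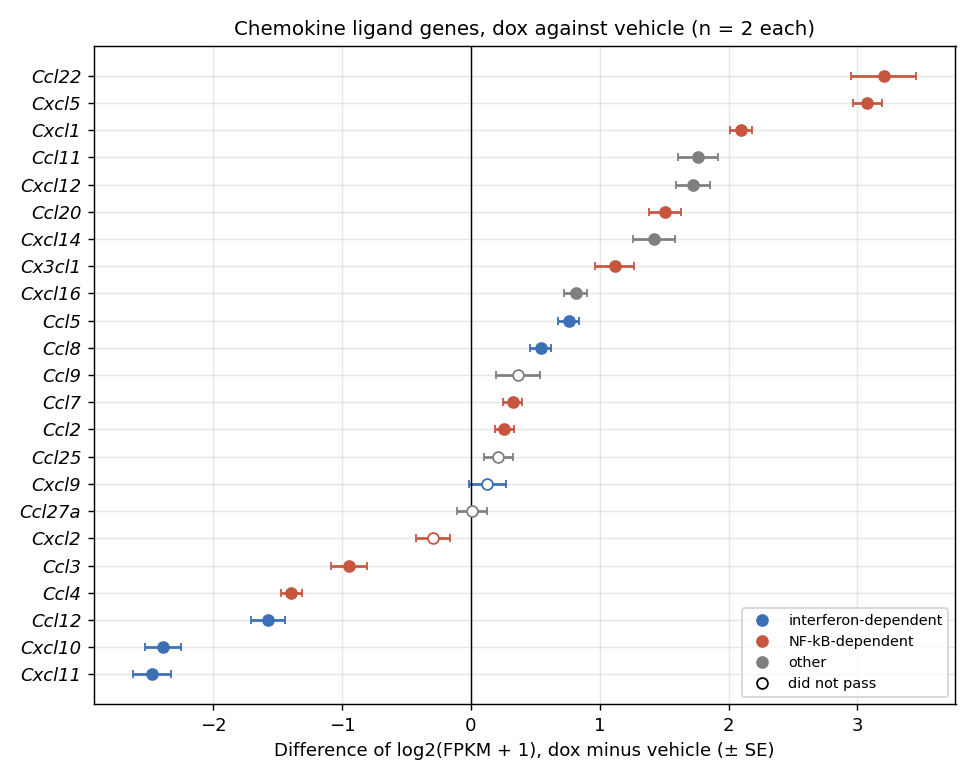
Difference between dox and vehicle on the log2(FPKM + 1) scale (horizontal axis) for the 23 chemokine ligand genes tested, ordered by size, with its standard error as bars (n = 2 libraries per group), coloured by list and open where the test was not passed. Cxcl11 and Cxcl10 lie lowest at -2.47 and -2.39, and Ccl22 and Cxcl5 highest at 3.20 and 3.08.

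Among the interferon-dependent members, the T cell attractants Cxcl10 and Cxcl11 fell, while Cxcl9, which shares their receptor Cxcr3, did not pass the test. Cxcl10 was at 251.4 and 288.2 FPKM in vehicle clones 1 and 2 and at 58.2 and 43.7 in the dox clones. Both dox libraries were far below both vehicle libraries, and both were above the wild-type range of 3.39 to 5.79. Exons of Cxcl10 overlap those of Art3 on the other strand, a gene at no more than 0.185 FPKM in any library. On the log2(FPKM + 1) scale, used for each difference below, Cxcl10 fell by 2.39 (SE 0.141, limma adjusted p = 2.46e-04), from 269.8 ± 26.0 to 51.0 ± 10.2 FPKM (SD, n = 2). Cxcl11, which encodes the ligand with the highest affinity for Cxcr3 and which GENCODE M21 annotates as a polymorphic pseudogene in the reference strain, was at 9.45 and 10.2 FPKM in vehicle and 1.22 and 0.699 in dox. It too fell without overlap between groups, by 2.47 (SE 0.148, limma adjusted p = 2.48e-04). Cxcl9, the ligand of this set known to depend most on interferon gamma, was at 8.72 and 8.96 FPKM in vehicle and at 11.4 and 8.29 in dox. Its groups overlapped, and its difference of 0.13 (SE 0.145, limma adjusted p = 0.526) did not pass and was -0.08 without dox clone 1.

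The CC chemokines of the interferon-dependent list were divided as well. Ccl12, a monocyte attractant of rodents, was at 3.78 and 4.17 FPKM in vehicle and 0.804 and 0.542 in dox. It fell by 1.58 (SE 0.129, limma adjusted p = 7.03e-04) and was then lower than in any wild-type library (1.47 to 3.04 FPKM). Ccl5, which draws in T cells and monocytes, was at 307.6 and 269.7 FPKM in vehicle and 490.3 and 486.5 in dox. Both dox libraries were above both vehicle libraries, and Ccl5 rose by 0.76 (SE 0.0816, limma adjusted p = 0.00166). Ccl8, another monocyte attractant, was at 24.5 and 25.5 FPKM in vehicle and 38.2 and 35.6 in dox. It rose by 0.54 (SE 0.0796, limma adjusted p = 0.00504). The summed level of the 6 genes, of which Ccl5 is the most abundant, was 606 and 607 FPKM in vehicle and 600.1 and 575 in dox, although 3 of them fell.

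The neutrophil-attracting CXC members of the NF-kB-dependent list held some of the largest differences. Cxcl5, a Cxcr2 ligand made by epithelial and stromal cells, was at 5.96 and 6.35 FPKM in vehicle and at 65.5 and 53.8 in dox. It rose by 3.08 (SE 0.111, limma adjusted p = 8.41e-05), from a mean of 6.16 ± 0.274 to 59.7 ± 8.30 FPKM (SD, n = 2). Cxcl1, another Cxcr2 ligand, was at 18.8 and 16.7 FPKM in vehicle and 79.5 and 78.9 in dox. It rose by 2.10 (SE 0.0847, limma adjusted p = 1.17e-04), and the clones of a group differed by at most 0.16 on the same scale. Cxcl2, whose promoter holds the same NF-kB match as Cxcl1, was at 4.06 and 5.00 FPKM in vehicle and 3.18 and 3.83 in dox. Its dox libraries lay below its vehicle libraries, and its difference of -0.29 (SE 0.131, limma adjusted p = 0.131) did not pass, but did where the clone number was a block (adjusted p = 0.0253). Cxcl3 was under 1 FPKM in all 8 libraries (at most 0.766, in dox clone 1) and was not tested. Of the exonic 50-base stretches of Cxcl2, 5.84% also occur in Cxcl3, so a small part of their fragments could be assigned to either.

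Of the NF-kB-dependent CC chemokines, Ccl22 and Ccl20 rose most. Ccl22, which attracts regulatory T cells through Ccr4, was at 6.74 and 3.29 FPKM in vehicle clones 1 and 2 and 55.1 and 49.2 in dox, and at or under 0.0458 in the wild-type libraries. It rose by 3.20 (SE 0.253, limma adjusted p = 6.04e-04), with the largest standard error of the 23 members, since vehicle clones differed by 0.85. Ccl20, the ligand of Ccr6, was at 15.5 and 16.0 FPKM in vehicle and 41.2 and 52.6 in dox. Both dox libraries were well above vehicle, and Ccl20 rose by 1.51 (SE 0.122, limma adjusted p = 6.76e-04). Cx3cl1, a chemokine anchored in the membrane that binds Cx3cr1, was at 1.66 and 1.35 FPKM in vehicle and 3.78 and 5.15 in dox. It rose by 1.12 (SE 0.152, limma adjusted p = 0.00386), and its vehicle levels were below all 4 wild-type libraries (1.91 to 2.45 FPKM).

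The monocyte attractants Ccl2 and Ccl7 differed little between dox and vehicle for their level. Ccl2, the main ligand of Ccr2, was at 195 and 207 FPKM in vehicle and 248 and 233 in dox. Its difference of 0.26 (SE 0.0727) passed narrowly (limma adjusted p = 0.0383), and without any single library it did not pass (adjusted p from 0.0649 to 0.196). Ccl7, also a ligand of Ccr2, was at 105 and 115 FPKM in vehicle and 138 in each dox library, a difference of 0.32 (SE 0.0750, limma adjusted p = 0.0222). That call was lost without dox clone 2 (adjusted p = 0.0561) or without vehicle clone 1 (0.137). Ccl3 and Ccl4, which are typical products of activated macrophages, went the other way. Ccl4 was at 25.7 and 25.4 FPKM in vehicle and 9.01 and 9.18 in dox, and it fell by 1.39 (SE 0.0795, limma adjusted p = 2.29e-04). Ccl3 was at 57.9 and 43.4 FPKM in vehicle and 24.4 and 26.7 in dox, and it fell by 0.95 (SE 0.139, limma adjusted p = 0.00500). For both genes, each dox library was below each vehicle library and above every wild-type library.

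Set against each other within a library, the lists changed their balance between vehicle and dox. The summed FPKM of the interferon-dependent genes was 1.39 and 1.38 times that of the NF-kB-dependent genes in vehicle, 0.898 and 0.884 times in dox and 0.536 to 0.694 times in the wild-type libraries, so dox lay between the other groups. For narrower lists (Cxcl9, Cxcl10 and Cxcl11 against Cxcl1, Cxcl2, Cxcl3, Cxcl5 and Ccl20) the ratio was 6.06 and 6.92 in vehicle and 0.373 and 0.278 in dox. In the wild-type libraries the narrow ratio was 1.72 to 2.53, so here dox lay below both other groups. The Cxcl10 to Cxcl5 ratio alone was 42.2 and 45.4 in vehicle and 0.888 and 0.813 in dox, so that Cxcl5 was the more abundant of this pair in the dox libraries and in no other library. These ratios restate the levels above and were not tested.

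Members outside both lists rose where they passed the test. Cxcl12, the homeostatic ligand of Cxcr4 made by stromal cells, was at 7.93 and 10.7 FPKM in vehicle and 33.0 and 32.3 in dox. It rose by 1.72 (SE 0.132, limma adjusted p = 5.46e-04). Cxcl14, a homeostatic chemokine of epithelia and stroma, was at 2.90 and 4.33 FPKM in vehicle and 10.4 and 12.1 in dox. It rose by 1.42 (SE 0.163, limma adjusted p = 0.00208). Ccl11 (eotaxin), which attracts eosinophils through Ccr3, was at 0.482 and 0.167 FPKM in vehicle and 3.73 and 3.21 in dox. It rose by 1.76 (SE 0.155, limma adjusted p = 8.56e-04) to a level above that of siControl, 2.04 FPKM. Cxcl16, a membrane-anchored ligand of Cxcr6, was at 8.27 and 9.17 FPKM in vehicle and 16.1 in each dox library, while Zmynd15, which overlaps its exons on the other strand, was at 0.621 to 1.69 over all libraries. It rose by 0.81 (SE 0.0898, limma adjusted p = 0.00183). In all 4 genes, both dox libraries were above both vehicle libraries. That was also so for Ccl9 and Ccl25, which did not pass, and its share over all genes was not computed.

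The other 3 tested members did not pass. Ccl9, a macrophage chemokine of rodents, was at 6.22 and 4.00 FPKM in vehicle and 6.92 and 6.57 in dox. Its difference was 0.37 (SE 0.174, limma adjusted p = 0.149), which passed only with a block for the clone number (adjusted p = 0.0218) or without vehicle clone 1 (0.0221) among the alternatives run. Ccl25, a thymic and intestinal chemokine, was at 1.49 and 1.47 FPKM in vehicle and 1.97 and 1.77 in dox, a difference of 0.21 (limma adjusted p = 0.188). Its exons overlap those of Elavl1 on the other strand, which was at 15.8 to 26.7 FPKM over the libraries, and whether the counting used strand was not given in the sources used here. Ccl27a, a chemokine of skin, shares 45.0% of its exonic 50-base stretches with near-identical copies and is uncertain. It was at 1.81 and 2.11 FPKM in vehicle and 1.94 and 2.01 in dox, a difference of 0.01 (limma adjusted p = 0.961). Exons of Ccl27a also overlap those of Il11ra1 on the other strand, which was at 1.98 and 2.29 FPKM in vehicle and 4.92 and 4.21 in dox. Ccl6, just below the filter with a mean of 0.431 FPKM over the knock-in libraries, was at 0.180 and 0.187 in vehicle, 0.750 and 0.607 in dox and 1.19 to 2.36 in wild-type cells. Ccl25, at 1.67 FPKM, was the member just above that filter.

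Members of 1 chromosomal block changed in opposite directions in both blocks on chromosome 11. On GRCm38 the members lie largely in blocks, with positions from GENCODE M21. The block at chr5:92321347-92365485 holds the Cxcr3 ligands Cxcl9, Cxcl10 and Cxcl11 within 44.1 kb. Cxcl9, whose difference did not pass, ends 18.6 kb from Cxcl10, which fell. The block at chr5:90759360-90905938 holds Cxcl5, Cxcl3, Cxcl15, Cxcl1 and Cxcl2, and 10.8 kb separate Cxcl1, which rose, from Cxcl2, whose difference was -0.29. The block at chr11:82035571-82305690 holds Ccl2, Ccl7, Ccl11, Ccl12, Ccl8 and Ccl1. In it Ccl12 fell, while Ccl11, 38.9 kb to its left, and Ccl8, 11.8 kb to its right, rose. The block at chr11:83525778-83664683 holds Ccl5, Ccl9, Ccl6, Ccl3 and Ccl4 in this order. Ccl5 rose, Ccl9 did not pass, Ccl6 was not tested, and Ccl3 and Ccl4, 13.2 kb apart, both fell. The block at chr8:94745590-94812036 holds Ccl22 and Cx3cl1, which both rose, and Ccl17, which was at 0 in vehicle and 0.168 and 0.242 FPKM in dox.

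**Figure D3:**
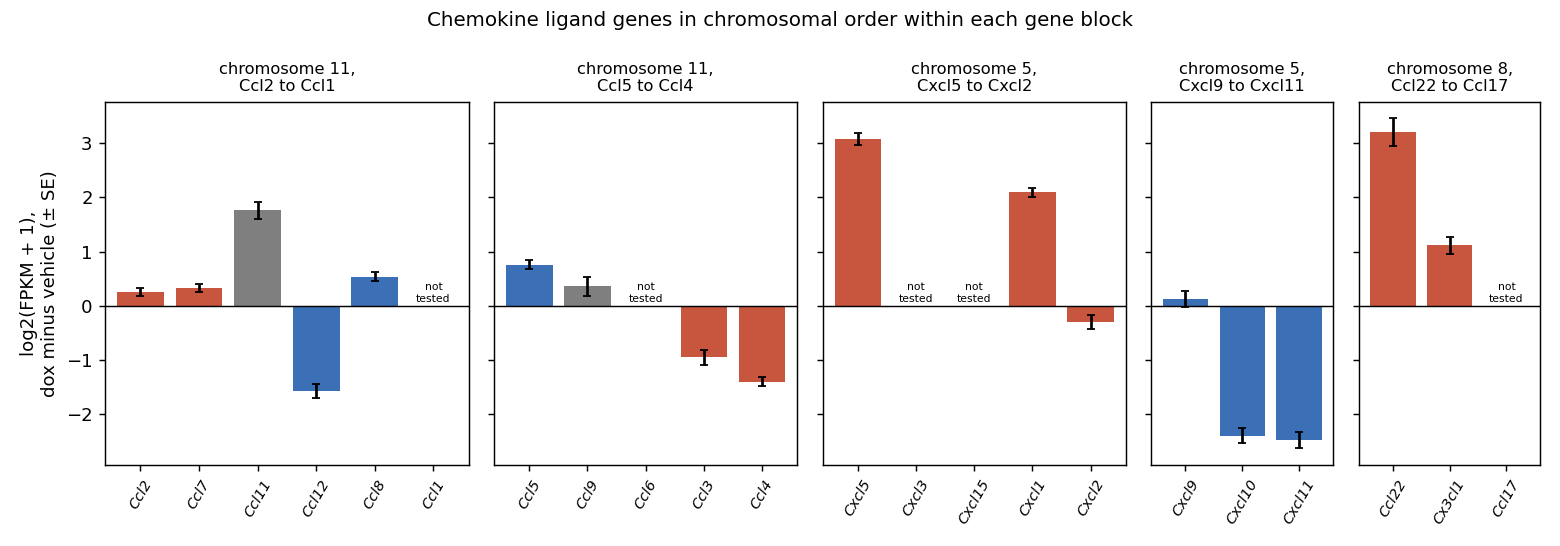
Difference between dox and vehicle on the log2(FPKM + 1) scale (bars, with the standard error as whiskers) of the chemokine ligand genes in 5 chromosomal blocks, in their order along the chromosome but not to its scale, with interferon-dependent members in blue, NF-kB-dependent in red and others in grey. Rising and falling members stand next to each other, as Ccl11, Ccl12 and Ccl8 do at 1.76, -1.58 and 0.54.

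Few receptors were measured. Of 23 chemokine receptor genes, 4 passed the filter, 2 fell and 2 did not pass. Among all genes tested 14.8% fell and 17.1% rose, and a list of 4 tested genes is too short to compare with these shares. Cxcr2, the receptor of Cxcl1, Cxcl2 and Cxcl5, was at 3.98 and 3.09 FPKM in vehicle and 1.44 and 1.64 in dox. It fell by 0.83 (SE 0.134, limma adjusted p = 0.00700). Of these ligands, Cxcl1 and Cxcl5 were higher in the dox libraries, while Cxcl2 had a difference of -0.29 that did not pass. Ccrl2, an atypical receptor, was at 6.21 and 6.93 FPKM in vehicle and 2.25 and 2.81 in dox and fell by 1.10 (SE 0.122, limma adjusted p = 0.00183). Cxcr4, the receptor of Cxcl12, had a difference of 0.26 (adjusted p = 0.261), and Ackr3 (listed as Cxcr7), which takes up Cxcl12, one of -0.04 (adjusted p = 0.789). Cxcr3, the receptor of Cxcl9, Cxcl10 and Cxcl11, was at or under 0.0804 FPKM in all 8 libraries. Ccr7 was not tested, at 0.153 and 0.0679 FPKM in vehicle and 1.64 and 1.85 in dox. The values of Cxcr3 and Ccr7 were seen before these 2 receptors were chosen.

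Interferon targets outside the chemokines were lower in dox, and the factors of the pathway moved in both directions. All 20 listed interferon targets fell, with a median of -1.42. Cmpk2, an antiviral nucleotide kinase, was at 53.7 and 66.7 FPKM in vehicle and 5.86 and 4.80 in dox (-3.27), and Ifit2 (-3.24), Rsad2 (-3.19) and Mx1 (-2.33), all antiviral proteins, followed. Of 20 interferon pathway factors, 9 fell and 5 rose, with a median of -0.19. Among all genes tested 14.8% fell and 17.1% rose. Ifnb1, the interferon beta gene, was at 4.81 and 5.87 FPKM in vehicle and 0.168 and 0.108 in dox (-2.47, SE 0.130, limma adjusted p = 1.93e-04), near its siControl level of 0.108. Ifih1, a sensor of viral RNA (-1.20), Stat2, a transcription factor of interferon signalling (-1.16), and Tlr3, an endosomal RNA sensor (-1.11), fell as well. The 5 that rose, Ifnar2, Ifngr1, Ifngr2, Irf8 and Ticam1, were named after their values were seen. Among the interferon-dependent chemokines, Cxcl10, Cxcl11 and Ccl12 thus had the direction of these targets, and Ccl5 and Ccl8 the opposite.

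Genes of the NF-kB pathway outside the chemokines included rises and falls, and most of its factors did not pass the test. Of 16 measured NF-kB targets, 6 rose and 2 fell, with a median of 0.17. The acute-phase genes Lcn2 (11.2 and 11.9 FPKM in vehicle, 156 and 166 in dox, 3.69), Saa3 (2.50) and the complement gene C3 (1.69) rose. Tnf, the gene of the cytokine TNF, was at 14.1 and 13.3 FPKM in vehicle and 3.83 and 3.75 in dox and fell by 1.61 (SE 0.0905, limma adjusted p = 2.20e-04), and Tnfaip2, named after its values were seen, fell by 0.35. Of 20 pathway factors, 4 rose, 1 fell and 15 did not pass, with a median of 0.09. With the clone number as a block 6 rose and 3 fell. Among all genes tested 17.1% rose and 14.8% fell, and 3052 and 3190 of 11927 did with the block. The counts of targets and factors were not tested against these shares. Nfkbiz, a nuclear cofactor of NF-kB, was at 4.80 and 4.91 FPKM in vehicle and 10.0 and 9.99 in dox (0.91, SE 0.0885, limma adjusted p = 0.00117). Ikbke (0.82), Map3k14 (0.44) and Nfkbia, an inhibitor that NF-kB itself induces (0.38), also rose, and Nfkbie, a related inhibitor named after its values were seen, fell by 0.36. The subunit genes Rela (0.16, limma adjusted p = 0.185) and Nfkb1 (-0.03, 0.832), also chosen after their values were seen, did not pass.

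**Figure D4:**
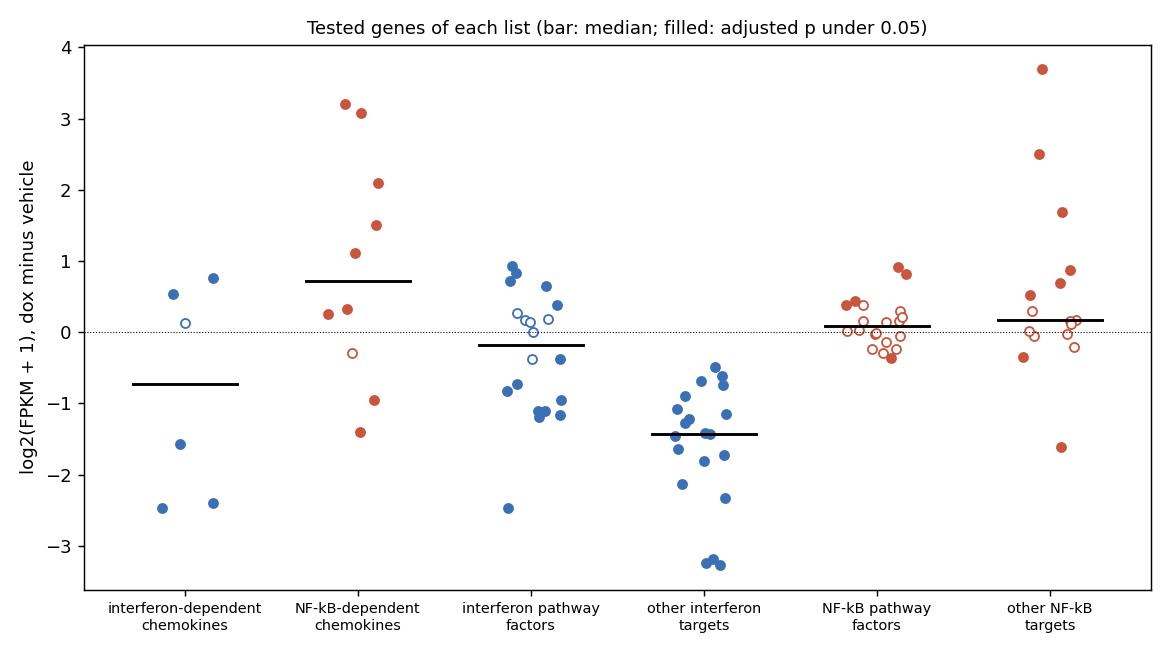
Difference between dox and vehicle on the log2(FPKM + 1) scale (vertical axis) for each tested gene of the 2 chemokine lists and of the lists of pathway factors and other targets, as points that are filled where the test was passed, with the median of each list as a bar. The 20 other interferon targets all lie below 0, around a median of -1.42, while both chemokine lists spread to both sides of 0.

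Markers of other cell types moved with these comparisons. All 15 fibroblast markers rose (median 1.63), led by Dcn (2.98), Col3a1 (2.44), Col1a2 (2.37) and Col1a1 (2.21), and their summed level was 415 to 518 FPKM in the wild-type libraries, 856 and 1016 in vehicle and 2521 and 2634 in dox. Of 14 macrophage markers, 8 rose and 6 did not pass (median 0.49, 11 rises with the clone number as a block), led by C1qa (1.16) and Tyrobp (0.68), and they summed to 207 to 271 FPKM in wild-type libraries, 471 and 493 in vehicle and 611 and 734 in dox. Among all genes tested 17.1% rose and 14.8% fell, and 3052 and 3190 of 11927 did with the block. Fibroblasts are a known source of Cxcl1, Cxcl5, Cxcl12 and Ccl11, and macrophages of Ccl3, Ccl4 and Ccl22. The differences of the fibroblast markers ran from 0.49 to 2.98, and those of Cxcl5, Cxcl1, Ccl11 and Cxcl12 were 3.08, 2.10, 1.76 and 1.72. These genes are not all the chemokines that fibroblasts can make, since they are a source of both kinds. Of the abundant members not named here, Ccl2 and Ccl7 differed by only 0.26 and 0.32, below the marker range, and Cxcl10 fell by 2.39. Among the macrophage products named, Ccl22 rose by 3.20, while Ccl3 and Ccl4 fell. The part of these cells in the chemokine levels was not tested. In bulk RNA, fewer cells of a type and less RNA per cell cannot be told apart. Of the markers of other leukocytes, some were at or near 0 and others were not. S100a9 and Ngp of neutrophils and Nkg7 and Gzmb of lymphocytes were listed at 0 in all 8 libraries, and Itgax of dendritic cells was at or under 0.0412 FPKM, whereas S100a8, Cd74 and H2-Ab1 rose by 0.76, 1.33 and 0.92. In the knock-in libraries Cd3e of T cells was at 1.14 to 1.47 FPKM, Cd79b of B cells at 1.12 to 2.52, Csf3r of neutrophils at 0.805 to 1.43 and Zbtb46 of dendritic cells at 0.815 to 1.29. Camp of neutrophils, which was not tested, was at 0.144 and 0.0747 FPKM in vehicle and 1.51 and 1.32 in dox.

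Between the lines, 16 of the 22 members compared were higher by at least 2-fold in both vehicle libraries than in siControl. Among all genes 6.92% were, and 4.54% were lower. Of the 16, 7 were under 1 FPKM in siControl and entered the comparison, which asked for a mean of 1 FPKM over the 3 libraries, only through their vehicle levels. The count therefore describes the members that passed this filter. Of those above 1 FPKM in siControl, Cxcl10 had the highest ratio, with a vehicle mean 46.6 times its siControl level. Of those below, Cxcl11 (0.104 FPKM in siControl) was at 93.9 times, Ccl20 (0.414) at 38.1 times and Cxcl9 (0.499) at 17.7 times, and Ccl22 was listed at 0 in siControl with a vehicle mean of 5.01 FPKM. Both kinds of member were among the 16, with the interferon-dependent Ccl5 at 17.3 times and the NF-kB-dependent Cxcl2, Ccl3 and Cxcl1 at 16.9, 16.1 and 11.7 times. The 6 members that did not differ by 2-fold were Ccl12, Ccl25, Ccl27a, Ccl9, Cx3cl1 and Cxcl12. Ccl6 and Ccl11 went the other way and did not pass this filter. They were at 2.36 and 2.04 FPKM in siControl and at most 0.187 and 0.482 in vehicle. Line, genotype, transfection and culture time differ together here and cannot be told apart, and siControl is 1 library, so no test was made. Other lists were higher in the vehicle libraries as well. In siControl and the vehicle libraries in turn, the fibroblast markers summed to 518, 856 and 1016 FPKM, the macrophage markers to 243, 471 and 493, and the interferon targets outside the chemokines to 684, 2954 and 3393. Their part in the chemokine difference was not tested.

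Of the wild-type libraries, siControl had the highest chemokine sum, and most members were a little lower in each siRNA library. These comparisons have 1 library per group, no replicate check, and a shared control. A 2-fold difference is counted here as 1 on the log2(FPKM + 1) scale, which for low genes asks for a larger gap in FPKM. In the siDnmt3a library no member of the 17 compared reached it, against 0.068% of all genes that were higher and 0.085% that were lower by 2-fold. There 15 members were lower and 2 higher, with a median of -0.44 against -0.00 for all genes. Of all 11768 genes compared, 6087 were lower and 5680 higher. Ccl2 was at 29.7 FPKM in siControl and 15.1 in siDnmt3a (-0.93), Ccl11 at 2.04 and 0.734 (-0.81, or 35.9% of siControl in FPKM), and Cxcl1 at 1.53 and 0.568 (-0.69, or 37.2%). In the siDnmt3b library 14 members were lower and 3 higher, beside 6015 and 5712 of all genes, with a median of -0.31 against -0.00. Ccl11 was the 1 member lower by 2-fold there, at 0.439 FPKM against 2.04 in siControl (-1.08), where 0.0512% of all genes were higher and 0.0597% lower by that much. Ccl7, at 18.2 FPKM in siControl and 11.4 in siDnmt3b (-0.63), was next. In the double siRNA library 12 members were lower and 5 higher, beside 5671 and 6052 of all genes, with a median of -0.37 against 0.01. Ccl11 was again the only member past 2-fold, at 0.334 FPKM (-1.19), beside 0.102% of genes higher and 0.136% lower, and Ccl2 was at 15.8 FPKM (-0.87).

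The lists of interferon-dependent and NF-kB-dependent members are set side by side here, over 4 and 6 compared members. Their medians were -0.55 and -0.44 in siDnmt3a, -0.29 and -0.34 in siDnmt3b and -0.24 and -0.41 in the double siRNA. Cxcl10, at 5.79 FPKM in siControl, was at 3.39, 3.85 and 4.19 in these libraries in turn, and Ccl5 stayed between 14.7 and 15.5 against 16.7. The fibroblast markers measured there were all lower than in siControl, with medians of -0.56, -0.71 and -0.81 over 14, 13 and 14 genes, and the macrophage markers had medians of -0.22, -0.10 and -0.10. The part of either cell type in the chemokine values was not tested.

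**Figure D5:**
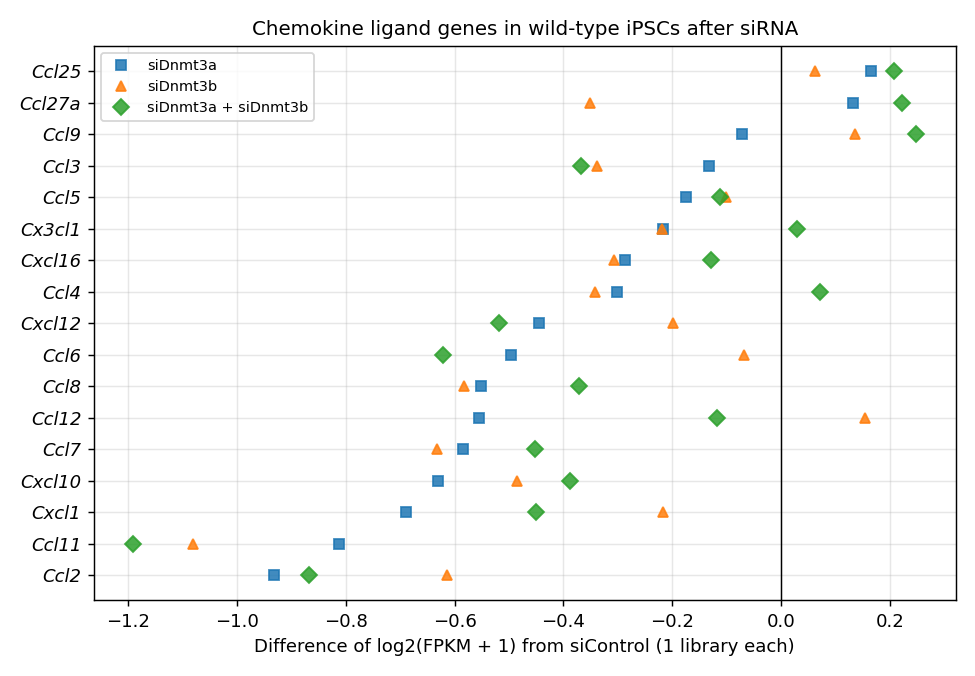
Difference from siControl on the log2(FPKM + 1) scale (horizontal axis) of the 17 chemokine ligand genes compared, with 1 point for each siRNA library and no replicates. Most points lie left of 0, and Ccl11 lies beyond -1 after siDnmt3b and after the double siRNA, at -1.08 and -1.19.

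The remaining members were scarce. Ccl21a, Ccl21b, Ccl21c, Ccl24, Ccl26, Ccl27b and Xcl1 were listed at 0 in all 8 libraries. Of these, Ccl21b and Ccl27b share nearly all of their exonic 50-base stretches with other genes (100% and 98.1%) and Ccl21a shares 71.6%, so a value of 0 is uncertain for them. A further 8 members (Ccl1, Ccl17, Ccl19, Ccl28, Cxcl3, Cxcl13, Cxcl15 and Cxcl17) were above 0 but under 1 FPKM in every library. Of them Cxcl15, a lung chemokine, was at most 0.0421 FPKM in wild-type libraries, at 0.122 and 0.252 in vehicle and at 0.608 and 0.527 in dox. Cxcl13, which guides B cells, and Cxcl17 were listed at 0 in the 4 wild-type libraries and at most 0.115 and 0.294 FPKM in the knock-in libraries.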

How the data were processed

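The authors deposited 1 table of FPKM per gene symbol and library, made, per the submitters' processing notes, with Cuffnorm, Cufflinks 2.2.1, SAMtools 0.1.19, Bowtie 1.0.0, TopHat2 2.0.10 and FastQC on GRCm38 (mm10). Annotation release, strand setting and scaling option were not given in the sources used here. Being scaled for library size, these values keep no depth in fragments, so no counting interval was computed.

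Groups came from the labels. The test of dox against vehicle was limma 3.58.1 (R 4.3.3, trend) on log2(FPKM + 1) of the 4 knock-in libraries, for 11927 genes whose mean there was at least 1 FPKM. It was two-sided, adjusted after Benjamini and Hochberg, at a threshold of 0.05. siRNA libraries were compared without a test, over genes with a mean of 1 FPKM or more in the 2 libraries.

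All members of both chemokine lists, and others at 1 FPKM or more in any library, were named. From other lists up to 4 genes with the largest difference were named by rule. Further genes of these lists, among them pathway factors, receptors and leukocyte markers, were named outside this rule with their values known. Of 191 distinct listed genes, 190 were in the table, 5 through an older symbol. Members and lists were chosen with earlier results of these data known. Positions and shared 50-base stretches came from GENCODE M21, promoters from RefSeq. The clone number, taken from the titles, was used as a block in an alternative fit. Across 11927 genes, which are not independent replicates, clone 1 minus clone 2 in dox followed the same difference in vehicle (Pearson r = 0.441). Alternatives changed the pseudocount, filter, scaling, trend, lists, fold and libraries used.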

Additional observations from a re-analysis of the deposited data

How the results depend on the processing

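The dox calls of 16 of the 18 members that rose or fell held in each of 13 alternative fits that tested them. The exceptions were Ccl2, which did not pass in 7 of these (adjusted p from 0.0597 to 0.196), and Ccl7 in 2. Ccl9 and Cxcl2 passed with the replicate block, which gave 14 rises and 6 falls (3052 and 3190 among all genes) and ended no chemokine call. The differences that changed sign had not passed, and were those of Ccl27a (-0.0127 with equal medians, and from -0.0664 to 0.0828 with libraries left out in turn) and of Cxcl9 (from -0.0838 to 0.337 with libraries left out). The medians moved more. With a pseudocount of 0.1 and of 5 they were 0.43 and 0.31 for all members, -1.14 and -0.28 for interferon-dependent and 0.91 and 0.43 for NF-kB-dependent members. With a filter at 5 FPKM they were 0.54, 0.13 and 0.91, so that the interferon-dependent median changed sign, since Ccl12 is then not measured. Without a filter they were 0.29 for all members and 0.32 for NF-kB-dependent ones, also 0.32 with a filter at 0.1 FPKM. With equal medians the NF-kB-dependent median was 0.69. With libraries left out in turn, the medians ran from 0.33 to 0.52, from -0.89 to -0.56 and from 0.63 to 0.81. With the narrow lists they were -2.39 and 1.80, with 0 interferon-dependent rises (limma, 0 at an unadjusted p under 0.05), 3 NF-kB-dependent rises and 0 falls (also 0 unadjusted).

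Members lower by 2-fold in siDnmt3a numbered 2 with a pseudocount of 0.1. At 1.5-fold 4, 3 and 3 were lower in siDnmt3a, siDnmt3b and the double siRNA, and with a filter at 5 FPKM 0 were lower by 2-fold in siDnmt3b and the double siRNA. The medians were -0.55, -0.43 and -0.43 with a pseudocount of 0.1, -0.57 and -0.58 (siDnmt3a, siDnmt3b) with a filter at 5 FPKM, -0.29, -0.22 and -0.21 at 0.1 FPKM, and -0.24, -0.19 and -0.11 without a filter. Without either vehicle library, 2 members (Ccl6 and Ccl11) were lower by 2-fold in the other vehicle library than in siControl, alternatives chosen after seeing the data. The number of libraries, 2 per dox group and 1 per siRNA group, limits the precision, and the depth in fragments is unknown.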
